A study of Rattus norvegicus with 18 samples.

Results

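Knee synovium from rats with treated cold-model arthritis was compared with knee synovium from normal rats across 23609 genes and transcripts. The treated group, AIA-cold-WTD, is adjuvant-induced arthritis (AIA) in the cold model given WTD, a classic Chinese herbal formula. The comparison takes every array carrying those labels: 3 AIA-cold-WTD and 3 control arrays, 6 of the 18 in the series. All rats were male Lewis rats of 6 to 8 weeks, an inbred strain prone to adjuvant arthritis, and the controls had neither arthritis nor WTD. Untreated AIA-cold rats (3 arrays) and AIA-hot-WTD rats, the hot model with WTD (3 arrays), serve as references, and all 18 arrays share 1 estimate of the spread. How the cold model was made, how WTD was dosed and whether an array held 1 rat are not given in the sources used here, so the p-values measure the spread between these arrays.

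The contrast joins disease and treatment: a difference from control can come from the arthritis, the cold model or WTD, and these cannot be told apart within it. For that reason the called features, and several others, are set beside AIA-cold minus control, with the test of AIA-cold-WTD against AIA-cold. Both comparisons with control use the same 3 control arrays, so likeness between them is no independent evidence.

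Synovium is the thin tissue that lines a joint. Its lining holds fibroblasts, which secrete lubricin, and resident macrophages, and beneath lie vessels and fat. In adjuvant arthritis an injected immune adjuvant sets off joint inflammation, with entry of neutrophils, monocytes and T cells, release of interleukin-1 and chemokines, growth of the lining and erosion of nearby cartilage and bone. Prg4, the lubricin gene of lining fibroblasts and superficial cartilage, had log2 levels of 7.32, 8.02 and 7.94 in control and 6.84, 7.28 and 7.37 in AIA-cold-WTD, among the bright genes on all 6 arrays. Levels throughout are log2 signals with the 75th percentile of each array set to 0, listed for replicates 1, 2 and 3 in that order. They compare arrays for 1 probe and do not rank genes against each other. In bulk tissue, fewer cells of a type and less RNA per cell cannot be told apart.

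The arrays read each transcript with a probe of 60 bases, and 7 features passed the test (a Benjamini-Hochberg adjusted p under 0.05 in limma, called below). The probes of 5 are printed, since each feature was judged by a single stretch of its transcript and some have no gene symbol. Positions are those in the scanner files, on the rat build rn4, and sequences run 5′ to 3′. The Irak2 probe maps to chr4:149588306-149591904 on the plus strand, a span of 3599 bases for a probe of 60, so it covers more than 1 aligned block. The Pcdh15 probe maps to chr20:14508583-14508642 and the Zbtb16 probe to chr8:51934505-51934564, both on the minus strand. Of the 3 features without a symbol, 2 map to chr9:65828759-65828817 (BF549735, an expressed sequence tag) and chr9:60601281-60601340 (A_44_P324138, described in the files only as unknown), both on the plus strand. The other one, BQ204855, maps to chr8:101390898-101390957 on the minus strand and is given by position only.
Irak2: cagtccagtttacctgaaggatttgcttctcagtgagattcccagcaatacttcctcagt
Pcdh15: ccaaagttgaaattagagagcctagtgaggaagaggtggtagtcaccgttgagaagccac
Zbtb16: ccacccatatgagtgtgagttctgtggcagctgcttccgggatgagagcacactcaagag
BF549735: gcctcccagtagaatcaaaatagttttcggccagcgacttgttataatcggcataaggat
A_44_P324138: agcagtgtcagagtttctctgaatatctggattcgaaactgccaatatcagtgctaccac

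Control replicate 1 stood apart from the other arrays. It was the dimmest of the 18, with a 75th percentile signal of 68.9 against 201 to 331 elsewhere. Only 43.3% of its probes were well above background, against 62.8% and 59.7% on the other control arrays and 71.5% to 76.6% on the AIA-cold-WTD arrays. Its lowest signal well above background lay at -1.86 (log2), against -3.90 and -3.72 on the other controls and between -5.41 and -4.80 in AIA-cold-WTD. It also carried cartilage: Col2a1, the collagen of cartilage, had a level of 11.4 there, against -3.31 and 1.34 on the other controls. Results are therefore also given without it. All 3 control arrays sat on slide 1, AIA-cold-WTD replicate 1 on slide 4 with the AIA-cold arrays, and replicates 2 and 3 on slide 5, so slide and group cannot be told apart in this contrast. Letters in the titles separate AIA-cold-WTD replicate 1 from replicates 2 and 3, and the labels do not explain them.

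The inflammatory chemokine Ccl3 and the transcription factor Zbtb16 rose in AIA-cold-WTD, and the signalling kinase Irak2, the cadherin Pcdh15 and 3 transcripts without a gene symbol fell. These 7 of 23609 make 0.0296% of the genes tested, 2 higher (0.00847%) and 5 lower (0.0212%). The calls depend on the fit. None passed when only the 6 arrays of the 2 groups were fitted (smallest adjusted p = 0.724 by limma), with slide as a random block (0.148), after normexp background correction (0.0581), or without AIA-cold-WTD replicate 2 (0.142) or 3 (0.220). Quantile normalization instead called 101, 69 higher and 32 lower, including all 7. Without control replicate 1 there were 25 calls (0.106%), 12 higher (0.0508%) and 13 lower (0.0551%), and 6 of the 7 were among them. A probe was tested only if every array of some group read it well above background, and all 18 arrays set this filter here too. Irak2, Pcdh15, BQ204855 and A_44_P324138 passed it only through control, the group where they were high. Their calls are therefore no support free of that array. Leaving out any 1 of the AIA-cold arrays, or AIA-hot-WTD replicate 2 or 3, also left 0 calls, since these arrays add to the shared estimate of the spread.

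Ccl3, which draws monocytes and other leukocytes into inflamed tissue, had levels of -3.23, -2.60 and -3.00 in control and -1.01, -1.42 and -1.12 in AIA-cold-WTD. Every treated array lay above every control array, where it was well above background on replicates 2 and 3. The difference was 1.76 ± 0.24 (SE, n = 3 and 3; limma adjusted p = 0.0402), a 3.38-fold rise, and 1.61 without control replicate 1 (adjusted p = 0.0438). In untreated AIA-cold it was 1.93 against the same controls (adjusted p = 0.0136), and AIA-cold-WTD differed from AIA-cold by -0.17 (unadjusted p = 0.496).

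Zbtb16 encodes a zinc-finger transcriptional regulator, PLZF, that glucocorticoids induce in many tissues. Its levels were -3.23, -2.74 and -2.97 in control against -0.90, 0.58 and 0.12 in AIA-cold-WTD. The groups did not overlap, control replicate 1 was not well above background, and the difference was 2.91 ± 0.45 (limma adjusted p = 0.0481), falling short of the threshold without control replicate 1 (2.79, adjusted p = 0.0790). A second Zbtb16 probe differed by only 0.25, so the call rests on the printed probe. AIA-cold minus control was 3.46 (adjusted p = 0.0136), and AIA-cold-WTD minus AIA-cold was -0.54 (unadjusted p = 0.251).

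Irak2, a kinase-like adaptor that carries interleukin-1 and Toll-like receptor signals to NF-kB, had levels of -0.46, -2.14 and -3.08 in control. On the AIA-cold-WTD arrays it was not well above background, with signals of -5.51, -5.48 and -5.69. The fall was therefore given as a bound, at least 8.99-fold lower (limma adjusted p = 0.0402) and at least 5.46-fold without control replicate 1 (adjusted p = 0.0348). Such a bound sets the mean of the measured group against the lowest measurable level of the other group's arrays or the probe's own signal, whichever is higher. In AIA-cold, where it was well above background on 1 of 3 arrays, the difference from control was -2.81 (adjusted p = 0.0392). Irak2 did not pass between AIA-cold-WTD and AIA-cold (unadjusted p = 0.133).

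Pcdh15 encodes a cadherin best known from the hair-cell tip links of the inner ear. Its control levels were 0.04, -2.72 and -3.09, and all 3 AIA-cold-WTD signals, -6.06, -7.27 and -7.56, were not well above background. That made it at least 8.82-fold lower (limma adjusted p = 0.0410), or at least 4.46-fold without control replicate 1 (adjusted p = 0.0402). Pcdh15 in AIA-cold differed from control by -2.18 (adjusted p = 0.151), and AIA-cold-WTD against AIA-cold had an unadjusted p of 0.00208 that did not pass adjustment (0.553). Of the transcripts without a symbol, A_44_P324138 was at least 13.1-fold lower and BQ204855 at least 9.33-fold lower, both not well above background after treatment. AIA-cold minus control was -2.47 for BQ204855 (adjusted p = 0.0432), while A_44_P324138 was not well above background in AIA-cold either, and neither passed between AIA-cold-WTD and AIA-cold (adjusted p = 0.939 and 0.807). All 5 features that fell had their highest signal on control replicate 1. The filter kept Irak2, Pcdh15, BQ204855 and A_44_P324138 only because all 3 control arrays, that dim one included, read them well above background. A bright signal there was thus a condition for testing them.

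BF549735 was the 1 call that separated treated from untreated arthritis. Its levels were -2.06, -2.70 and -2.94 in control, -2.36, -2.43 and -2.64 in AIA-cold, and -4.00, -4.56 and -4.89 in AIA-cold-WTD. Control replicate 1 was not well above background, control and AIA-cold overlapped, and every AIA-cold-WTD array lay below both. The fall was 1.92 ± 0.25 on the log2 scale against control (limma adjusted p = 0.0402; 1.66 without control replicate 1, adjusted p = 0.0348), while AIA-cold minus control was 0.09.

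**Figure D1:**
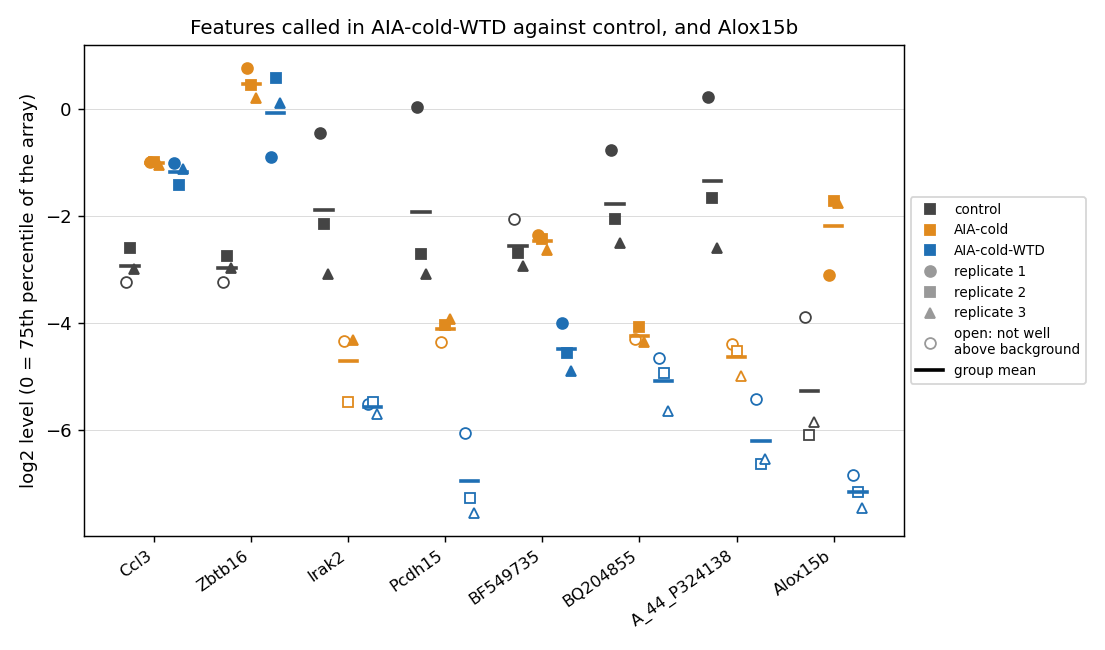
Level of the 7 called features and of Alox15b on each array of control, AIA-cold and AIA-cold-WTD (log2, with 0 at the 75th percentile of the array). Marker shape gives the replicate, open markers are probes not well above background and bars are group means. AIA-cold lies near AIA-cold-WTD for Ccl3 and Zbtb16, and apart from it for BF549735 and Alox15b.

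The genes with a symbol and the 10 smallest unadjusted p-values add 6 that missed the threshold to Ccl3, Irak2, Pcdh15 and Zbtb16. Fkbp5, a co-chaperone that restrains the glucocorticoid receptor and is itself induced by it, had levels of 1.31, 2.14 and 1.82 in control and 3.21, 4.27 and 4.18 in AIA-cold-WTD. The arrays did not overlap, and the difference was 2.13 ± 0.35 (limma adjusted p = 0.0619), with 2.50 for AIA-cold minus control (adjusted p = 0.0147). Tnfrsf14, the HVEM receptor of the TNF receptor family on lymphoid and myeloid cells, differed by 3.35 ± 0.57 (adjusted p = 0.0619), from -3.59, -3.10 and -5.15 in control, well above background only on replicate 2, to -0.07, -1.30 and -0.41. The lower of its 2 probes differed by 1.95. Spn (CD43, a sialoglycoprotein of leukocytes) differed by 1.96 (adjusted p = 0.0719), but its other probe by only 0.05. All 3 AIA-cold-WTD arrays were above all 3 controls for each of these genes.

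On the other side, Ubxn2b, a cofactor of the p97 ATPase, had levels of 0.81, -0.76 and -0.96 in control and -2.03, -2.37 and -2.32 in AIA-cold-WTD. The difference of -1.94 ± 0.33 missed the threshold (adjusted p = 0.0619) and passed it without control replicate 1 (-1.38, adjusted p = 0.0287). The MAP kinase phosphatase Dusp14 behaved in the same way (-0.78, adjusted p = 0.0619; -0.84 without that array, adjusted p = 0.0484), as did 1700012B07Rkl (-3.02, adjusted p = 0.0607; -2.31, adjusted p = 0.0402). All 3 were also low in AIA-cold, by -2.04 for Ubxn2b, -1.11 for Dusp14 and -2.82 for 1700012B07Rkl against control (adjusted p = 0.0235, 0.0136 and 0.0263).

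Without control replicate 1 the calls included 2 further genes of known function from the lists below. Klrd1 (CD94, a receptor of natural killer and cytotoxic T cells) was higher by 2.17 (limma adjusted p = 0.0402), though not well above background on any control array, which leaves a bound of at least 1.40-fold, and with all arrays its sign turned after normexp correction (-0.20). Gclc, the catalytic subunit that limits glutathione synthesis, was lower by 1.45 on the log2 scale (adjusted p = 0.0402), with -1.73 and -2.54 on the 2 remaining controls and -3.76, -3.67 and -3.32 in AIA-cold-WTD. With all arrays their adjusted p-values were 0.133 and 0.106.

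Many genes did not overlap between groups: 1525 genes (6.46%) lay higher on every AIA-cold-WTD array than on every control array, and 2322 (9.84%) lower, together 16.3%. An unadjusted p under 0.05 was reached by 1357 genes higher (5.75%) and 2204 lower (9.34%), or 1219 (5.16%) and 1356 (5.74%) without control replicate 1. The median of all genes was -0.04. Gene lists are described against these shares, by counts and medians with no test of the list.

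Neutrophil genes had the largest median, 2.92, and all 11 measured of 18 listed lay higher. Of these, 7 did not overlap, against 6.46% of all genes, and none was called. The list median was 1.38 for AIA-cold minus control and -0.01 for AIA-cold-WTD minus AIA-hot-WTD. S100a9, a subunit of the alarmin calprotectin, had levels of 0.20, 0.23 and -1.20 in control and 1.13, 5.32 and 6.75 in AIA-cold-WTD (difference 4.66 ± 1.29, limma adjusted p = 0.157). Its partner S100a8 had -0.47, 0.11 and -0.91 against 0.70, 4.91 and 6.36. For both, replicates 2 and 3 were high and replicate 1 lay just above the controls.

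Granule genes had the same layout. Camp, the cathelicidin precursor of neutrophil granules, had levels of -0.57, 3.77 and 5.06 in AIA-cold-WTD and no control above -1.28. Ctsg, the primary granule protease cathepsin G, was not well above background in control and reached -3.44, 1.41 and 2.36 in AIA-cold-WTD, at least 9.66-fold higher and at least 15.2-fold without control replicate 1. Lcn2, the siderophore-binding lipocalin of granules and inflamed epithelium, was the only one of the 7 with replicate 1 among its high arrays (2.38, 1.60 and 2.70 against 1.47, -0.18 and -0.66; difference 2.02, adjusted p = 0.159). Mpo, the myeloperoxidase gene of early granulocytes, differed by 0.12.

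The mean of the neutrophil genes was -1.54, 1.53 and 2.99 on the treated arrays against -1.13, -2.26 and -2.66 on the controls, so replicate 1 lay below control replicate 1. Erythroid genes followed the same arrays: their means were -0.69, 2.08 and 3.09 in AIA-cold-WTD and 0.27, 0.76 and -1.78 in control. The erythroid median was 1.47, with 10 of 11 members higher and 0 without overlap. It was nearly the same, 1.46, for AIA-cold minus control, and -0.72 for AIA-cold-WTD minus AIA-hot-WTD. Slc4a1, the anion exchanger of red cells, and Ahsp, the chaperone of alpha-globin, differed by 3.57 and 3.90 (adjusted p = 0.230 and 0.217), while the abundant globin Hbb-b1 differed by -0.22. Bglap (osteocalcin, a bone matrix protein of osteoblasts) had levels of 1.89, 5.29 and 4.62 in AIA-cold-WTD against 3.72, -2.47 and -3.43 in control. The mean of the 12 measured osteoblast and bone matrix genes was -0.69, 0.62 and 0.41 in AIA-cold-WTD against 1.23, -1.86 and -1.10 in control, highest on control replicate 1. Neutrophil genes, erythroid genes and Bglap were thus high on the same pair of treated arrays, and their part in each other's result was not tested.

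The promoters of the 3 neutrophil genes with the largest difference and an entry in the RefSeq promoter table are shown, because these genes were high on the same arrays. Each is the 250 bases before the RefSeq start on GRCr8, all on the minus strand: chr15:33907597-33907846 for Ctsg, chr8:118721999-118722248 for Camp and chr2:178490623-178490872 for S100a9. Capitals mark matches to GAGGAA, the core bound by the myeloid factor PU.1, on either strand. The C/EBP-type motif TTGCNNAA had 0 matches in these 3.
Ctsg: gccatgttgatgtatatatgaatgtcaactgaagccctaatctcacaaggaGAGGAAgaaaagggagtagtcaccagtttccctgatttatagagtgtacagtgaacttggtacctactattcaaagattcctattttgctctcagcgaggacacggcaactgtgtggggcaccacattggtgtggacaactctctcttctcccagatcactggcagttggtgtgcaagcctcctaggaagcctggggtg
Camp: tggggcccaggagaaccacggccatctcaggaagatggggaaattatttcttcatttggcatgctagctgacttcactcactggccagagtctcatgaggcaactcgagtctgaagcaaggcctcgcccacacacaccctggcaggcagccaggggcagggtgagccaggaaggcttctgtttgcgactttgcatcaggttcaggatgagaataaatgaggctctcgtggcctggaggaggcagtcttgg
S100a9: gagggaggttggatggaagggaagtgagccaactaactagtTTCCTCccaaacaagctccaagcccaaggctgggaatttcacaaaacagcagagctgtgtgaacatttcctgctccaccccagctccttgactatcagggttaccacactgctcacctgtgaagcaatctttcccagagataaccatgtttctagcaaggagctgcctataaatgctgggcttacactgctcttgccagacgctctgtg

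Of the neutrophil genes, 9 matched the table. GAGGAA was found in 4 of the 9 (S100a9, Prtn3, Mpo and Ctsg) and in 23.3% of 33469 promoters of the same length, and TTGCNNAA in 3 of the 9 (Lcn2, Ngp and Np4) and in 9.22%. The motifs do not overlap each other here, and a match describes the letters of this window only.

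Of 17 measured T and NK cell genes, 15 were above control, with a median of 0.55 (1.00 without control replicate 1). Without overlap there were 5, against 6.46% of all genes. The 5 were Nkg7, Klrd1, Cd8b, Prf1 and Gzmk, which serve the killing of target cells or its recognition, and none was called. Nkg7, a granule membrane protein, had levels of -2.16, -1.58 and -2.08 in control and -0.53, 1.08 and 1.90 in AIA-cold-WTD (difference 2.76 ± 0.59, limma adjusted p = 0.0845). Prf1, the pore-forming perforin, differed by 1.31 (adjusted p = 0.206).

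The general T cell genes were not of one kind. Cd3g and Cd3d, chains of the T cell receptor complex, were high only on treated replicate 1 (1.90 and 2.13, against -2.13 to -0.18 on replicates 2 and 3), and Cd4 differed by -0.25. The list's median was -0.20 after normexp correction, which moved the median of all genes to -0.21, and 6 of the 17 were not well above background on any control array. Of B and plasma cell genes only 4 of 13 were measured: Pou2af1, a B cell coactivator, differed by 2.07 with 1 probe and by 0.13 with the other, and Sdc1, the plasma cell and epithelial syndecan, by -0.37.

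Antigen presentation genes were above control in number more than in separation. All 10 MHC class II genes lay higher, with a median of 0.78; without control replicate 1 it was 8 of 10 and 0.44. Only RT1-DOa did not overlap. It was not well above background in control, so no fold is given with all arrays, and its sign turned after normexp correction (-0.33). Its probe passed the filter only through AIA-cold-WTD, the group where it was high. Cd74, the invariant chain, had levels of 4.27, 5.97 and 5.41 in control and 7.10, 5.72 and 5.62 in AIA-cold-WTD. RT1-Da, a class II alpha chain, had 2.26, 4.60 and 4.03 against 5.46, 4.40 and 4.38. In both genes treated replicate 1 was the high array and control replicate 1 the low one, and without the latter the differences shrank to 0.46 and 0.43. RT1-Bb differed by 1.32, and by 0.76 without it. Mast cell genes were similar: 8 of 9 lay higher with a median of 0.57, and 0.35 without control replicate 1. Hdc, the histamine-forming enzyme, differed by 1.25 and then 0.58, and Ms4a2, the beta chain of the IgE receptor, by 1.02 and then 0.50.

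Macrophage genes depended on control replicate 1 outright. With all arrays 12 of 23 lay higher and 11 lower, and the median was 0.03. Without that array 19 of 23 lay lower, 14 of them at an unadjusted p under 0.05 (background 5.74% of genes lower), with a median of -0.56, and 0 passed adjustment. Folr2, the folate receptor of resident macrophages, had levels of 3.46, 5.47 and 5.30 in control and 4.47, 4.45 and 4.58 in AIA-cold-WTD. Trem2, a lipid-sensing receptor of lining macrophages, had 3.57, 5.68 and 5.49 against 4.83, 4.64 and 4.66. In each, control replicate 1 was the lowest of the 6 arrays and the other controls were the highest. Timd4, a phosphatidylserine receptor of resident macrophages, differed by -0.54 and Cd209f, a lectin receptor, by 1.32.

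Of 8 inflammatory cytokine genes measured, 3 lay higher and 5 lower (median -0.07, and -0.17 without control replicate 1), and none was called. Il1b, the interleukin-1 beta ligand, had levels of -2.01, -1.25 and -1.66 in control and 0.65, -0.54 and -0.31 in AIA-cold-WTD, a difference of 1.57 ± 0.32 (limma adjusted p = 0.0755). Il1rn, the receptor antagonist that blocks interleukin-1, had -3.37, -1.12 and -1.37 against 0.38, 0.05 and 1.00 (2.43 ± 0.48, adjusted p = 0.0753). No treated array overlapped a control array in either gene, AIA-cold minus control was 1.17 and 1.47 (adjusted p = 0.0896 and 0.129), and without control replicate 1 the differences were 1.39 and 1.72. Il6, a cytokine of the acute phase, differed by -1.06 (adjusted p = 0.305), well above background on 1 of 3 control arrays.

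Downstream of these ligands, 11 of 19 genes that relay interleukin-1 or Toll-like receptor signals lay higher and 8 lower (median 0.02), turning to 6 higher and 13 lower (median -0.09) without control replicate 1. Irak2 was the only member called, and Irak1 differed by -0.41 (limma adjusted p = 0.250). Among NF-kB feedback genes 8 of 10 lay lower (median -0.17), or 6 of 10 (median -0.10) without control replicate 1: Nfkbia, which encodes the inhibitor IkB-alpha, differed by -0.60 without overlap (adjusted p = 0.184), and Nfkbie by -0.38.

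Chemokines divided, 13 of 23 higher and 10 lower, with a median of 0.22. Beside Ccl3, its close relative Ccl4 differed by 1.31 ± 0.28 (adjusted p = 0.0845) and Ccl5, which recruits T cells, by 1.89 (adjusted p = 0.185), each without overlap. Cx3cl1, the membrane-bound ligand of monocytes, lay lower by -0.75 and the monocyte chemokine Ccl2 differed by 0.54 (adjusted p = 0.709). Ccl3 and Ccl4 are near neighbours in sequence as well as function, and each was read by 1 probe.

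Among complement genes C3, the central component, had levels of -0.80, 0.59 and 0.03 in control and 4.37, 2.23 and 2.24 in AIA-cold-WTD (3.01 ± 0.63, adjusted p = 0.0808). Cfb, its partner in the alternative pathway, differed by 1.30 without overlap (adjusted p = 0.186). Of all 17 complement genes 10 lay higher (median 0.07). Without control replicate 1 the direction turned, with 10 of 17 lower (median -0.16) and 8 of them at an unadjusted p under 0.05 (background 5.74%). Type I interferon response genes were near the background: 11 of 18 lay higher, with 1 higher and 2 lower without overlap and a median of 0.14 (0.05 without control replicate 1). Rsad2, an antiviral enzyme, differed by 1.28 with 1 probe and 0.01 with the other, and Ifi27 by -0.32.

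**Figure D2:**
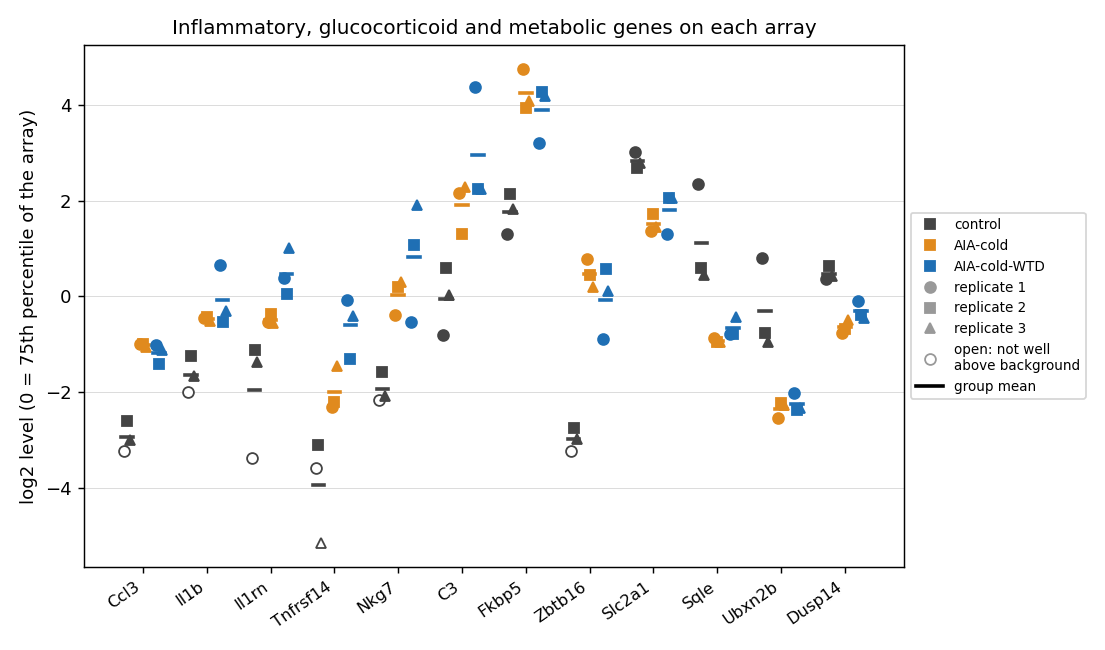
Level of 12 inflammatory, glucocorticoid-induced and metabolic genes on each array (log2, with 0 at the 75th percentile of the array). Marker shape gives the replicate, open markers are probes not well above background and bars are group means. For Ccl3, Il1b, Il1rn, Fkbp5, Zbtb16, Slc2a1, Sqle and Ubxn2b no AIA-cold-WTD array overlaps a control array, and AIA-cold lies on the same side.

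Glucocorticoid-induced genes did not move as a block. Of 20 members 12 lay higher and 8 lower (median 0.28, and 0.05 without control replicate 1). Without overlap, 5 were higher and 3 lower, against 6.46% and 9.84% of all genes. Besides Zbtb16 and Fkbp5, the metal-binding Mt1 differed by 0.95 and Pdk4, a brake on glucose oxidation, by 1.58 (adjusted p = 0.314 for each), or by 0.41 with the other Pdk4 probe. Ddit4, an inhibitor of mTORC1, lay lower on every treated array (-0.97, -1.21 and -1.20 in control, -2.60, -2.07 and -2.57 in AIA-cold-WTD; difference -1.29, adjusted p = 0.181). In AIA-cold Ddit4 differed from control by only -0.26. Dusp1, a phosphatase that both glucocorticoids and stress induce, differed by -1.04.

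Immediate early genes, which cells switch on within minutes of a stimulus, lay lower: 16 of 21, with a median of -0.41. Of them 7 did not overlap, against 9.84% of all genes. Part of the lower level of this list rested on control replicate 1, without which 12 of 21 lay lower with a median of -0.08. Klf2, a factor of quiescent endothelium and T cells, had levels of 1.78, 1.28 and 1.63 in control and 1.09, 1.02 and 0.99 in AIA-cold-WTD (-0.53, adjusted p = 0.207). Egr1 differed by -0.65 without overlap, and by -0.52 without control replicate 1. Nr4a1 differed by -1.42, and by -0.74 without that array, while Fos differed by -0.25. The arrays of both groups overlapped for Nr4a1 and for Fos.

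Of 18 glycolysis genes 16 lay lower (median -0.33), 5 without overlap against 9.84% of all genes. Without control replicate 1 it was again 16 of 18, with a median of -0.28. After normexp correction the median was -0.08, above the -0.21 of all genes, so the list's direction relative to all genes turned. Slc2a1, the GLUT1 glucose transporter, which is not on that list but among the hypoxia targets, had levels of 3.00, 2.68 and 2.78 in control and 1.30, 2.06 and 2.06 in AIA-cold-WTD. The groups were clear of each other, with a difference of -1.01 ± 0.21 (limma adjusted p = 0.0755). Gapdh differed by -0.39, Pkm by -0.41, Pfkp by -0.59 and Pgam1 by -0.38, with adjusted p-values between 0.241 and 0.414. Without control replicate 1 Pkm differed by -0.14 and Pfkp by -0.28, and after normexp correction the sign of Pgam1 turned (0.12). Ldha, the lactate-forming enzyme, was low on replicate 1 alone (1.52, against 2.37 and 2.63 on the others and 2.55 to 2.64 in control). AIA-cold minus control had a larger list median, -0.60, and AIA-cold-WTD minus AIA-cold had a median of 0.28. Pfkp went the other way, with a smaller difference from control in AIA-cold (-0.44).

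Sterol and lipid synthesis genes also lay mostly lower, and a link with the glycolysis genes was not tested. Of 21 cholesterol genes 15 lay lower (median -0.24), 5 without overlap against 9.84% of all genes. Without control replicate 1 it was 19 of 21, with a median of -0.31. Sqle, squalene epoxidase, had levels of 2.34, 0.59 and 0.44 in control and -0.78, -0.78 and -0.43 in AIA-cold-WTD, a difference of -1.79 ± 0.39 (limma adjusted p = 0.0883). Without control replicate 1 the Sqle difference was -1.18 (adjusted p = 0.0891), and AIA-cold minus control was -2.05 (adjusted p = 0.0376). Msmo1, a sterol demethylase of the same pathway, had 4.11, 4.47 and 4.33 against 3.66, 3.82 and 3.82 (-0.53, adjusted p = 0.133). Each gene was lower on all treated arrays.

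Fatty acid and triglyceride synthesis genes lay lower in 16 of 21 cases (median -0.47, and -0.79 without control replicate 1). Of them 2 did not overlap, near the share of all genes (9.84% lower). Fasn, fatty acid synthase, had levels of 6.47, 8.40 and 7.75 in control and 3.66, 6.82 and 7.95 in AIA-cold-WTD, and Scd, the stearoyl-CoA desaturase, 5.39, 7.39 and 6.78 against 2.70, 6.04 and 6.32. The other Scd probe differed by only -0.18. Treated replicate 1 was lowest in both. The adipocyte genes were low on the same array: their mean there was 1.29, against 4.28 and 4.21 on replicates 2 and 3 and 2.33, 3.92 and 3.68 in control. Leaving out that array turned the fatty acid list's median to 0.31, and the part of fat in the result was not tested. Adipoq, the adipocyte hormone, had levels of 4.97, 7.86 and 7.70 in AIA-cold-WTD against 5.63, 7.85 and 7.42. In AIA-cold, Fasn and Scd differed from control by -4.21 and -3.70, and AIA-cold-WTD exceeded AIA-cold by 2.82 and 2.20 (unadjusted p = 0.0162 and 0.0286 in limma, where a p under 0.05 was reached by 2.65% of genes higher and 3.44% lower; neither passed adjustment).

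Fatty acid oxidation genes changed sign with the controls: 18 of 22 lay higher (median 0.16) with all arrays, and 6 of 22 (median -0.25) without control replicate 1. Cpt1a, the entry step of mitochondrial oxidation, differed by 0.73 without overlap (adjusted p = 0.224). Of 27 respiratory chain genes 16 lay lower (median -0.10), and 26 of 27 without control replicate 1 (median -0.33). Antioxidant genes lay lower in 12 of 17 cases (median -0.26) and in 15 of 17 without it (-0.36), among them Gclc and Gpx1, the glutathione peroxidase, at -0.34.

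Among eicosanoid genes, 1 fell against untreated arthritis. Alox15b, a lipoxygenase that oxygenates arachidonic acid, was not well above background on any AIA-cold-WTD array (-6.83, -7.16 and -7.46) or on any control array (-3.89, -6.09 and -5.85), so no fold between these groups is given. In AIA-cold it was well above background on all 3 arrays, at -3.11, -1.72 and -1.75. AIA-cold was at least 7.30-fold above AIA-cold-WTD (log2 difference -4.96, limma adjusted p = 0.00241) and at least 1.95-fold above control (adjusted p = 0.0235). It was 1 of 2 genes called between the WTD-treated and untreated cold model (0.00847%), the other being BF549735. The Alox15b probe passed the filter only through AIA-cold, the group where it was high. With probes required well above background in AIA-cold-WTD or control, Alox15b dropped out and 1 gene was called in this comparison.

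Other members of the eicosanoid list leaned low, 19 of 28 with a median of -0.18. Cysltr1, a receptor for cysteinyl leukotrienes, differed by -0.94 (adjusted p = 0.137) and the synovial phospholipase Pla2g2a by -1.15 (-1.62 without control replicate 1). Ptgs1, the constitutive cyclooxygenase, had levels of 2.90, 2.75 and 2.75 in control and 1.81, 2.46 and 2.60 in AIA-cold-WTD. Only Ptgs1, Ptger1 and Alox15b did not overlap, all 3 lower, near the share of all genes (9.84% lower). Alox15b was not well above background in either group, so its place in that count is no measured difference.

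Cell cycle genes lay higher in 22 of 26 cases, and 11 did not overlap, against 6.46% of all genes. Their median was 0.51, and 0.59 without control replicate 1. Mki67, the proliferation marker Ki-67, had levels of -0.36, -0.68 and -0.91 in control and 0.70, 0.29 and 1.22 in AIA-cold-WTD (1.39 ± 0.50, limma adjusted p = 0.237). Mcm6, of the replicative helicase, differed by 0.64 (-0.14 after normexp correction), the mitotic kinase Plk1 by 0.99 and the survivin gene Birc5 by 1.01. AIA-cold minus control had a median of 0.04 over the same genes, and AIA-cold-WTD minus AIA-cold one of 0.64, with 0 calls. After normexp correction the median was 0.04 where that of all genes was -0.21.

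Matrix and joint tissue genes separated the groups little. Of 21 matrix proteases and inhibitors 15 lay higher (median 0.24), or 11 of 21 (median 0.11) without control replicate 1, and only Mmp11 did not overlap (1.64, adjusted p = 0.322). Mmp3, the stromelysin of inflamed synovium, had levels of 1.47, 2.29 and 2.05 in control against 2.41, 0.95 and 1.15, and differed by -0.44. Mmp9 and Mmp13, a gelatinase and a collagenase, differed by 2.13 and 1.53 with control replicate 1 at 0.55 and 0.90, within or near the treated range. Mmp9 passed the filter only through AIA-cold-WTD. The bone-resorbing protease Ctsk was high on treated replicate 1 (5.85, against 4.22 and 4.30), and Acp5, the tartrate-resistant phosphatase of osteoclasts, differed by 0.01. For type I collagen no direction is given: the probes of Col1a1 ran from -0.59 to 1.12 and those of Col1a2 from -0.88 to 0.63.

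Cartilage genes turned on 1 array. Their mean level was 5.02 on control replicate 1, -1.44 and 0.09 on the other controls and between 0.07 and 0.89 in AIA-cold-WTD. The list median was -0.70 with that array and 0.74 without it. Acan, the cartilage proteoglycan, differed by -0.13 and by 2.27, and Col2a1 by -0.59 and by 3.54. Sox9, the cartilage transcription factor, differed by -1.76, and by -0.41 without it. Neither direction is therefore given for cartilage.

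Endothelial genes lay lower in 18 of 20 cases with a median of -0.52, but without control replicate 1 the median was 0.00. Flt1 and Emcn, of blood vessel endothelium, differed by -1.30 and -0.72 (adjusted p = 0.180 and 0.212) and by -0.66 and -0.52 without it, and the other Flt1 probe by -0.53. Skeletal muscle genes lay lower in 18 of 18 cases (median -0.93, and -1.63 without control replicate 1), 4 without overlap against 9.84% of all genes. Ckm, muscle creatine kinase, had levels of -1.02, 2.80 and 1.40 in control and -3.45, 0.66 and 0.05 in AIA-cold-WTD, and Tnni2, a fast troponin, 7.07, 4.17 and 2.65 against 0.45, 2.25 and 1.63. With 1 value for Actn3 missing on control replicate 2 as an outlier spot, that gene was fitted on 2 controls.

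**Figure D3:**
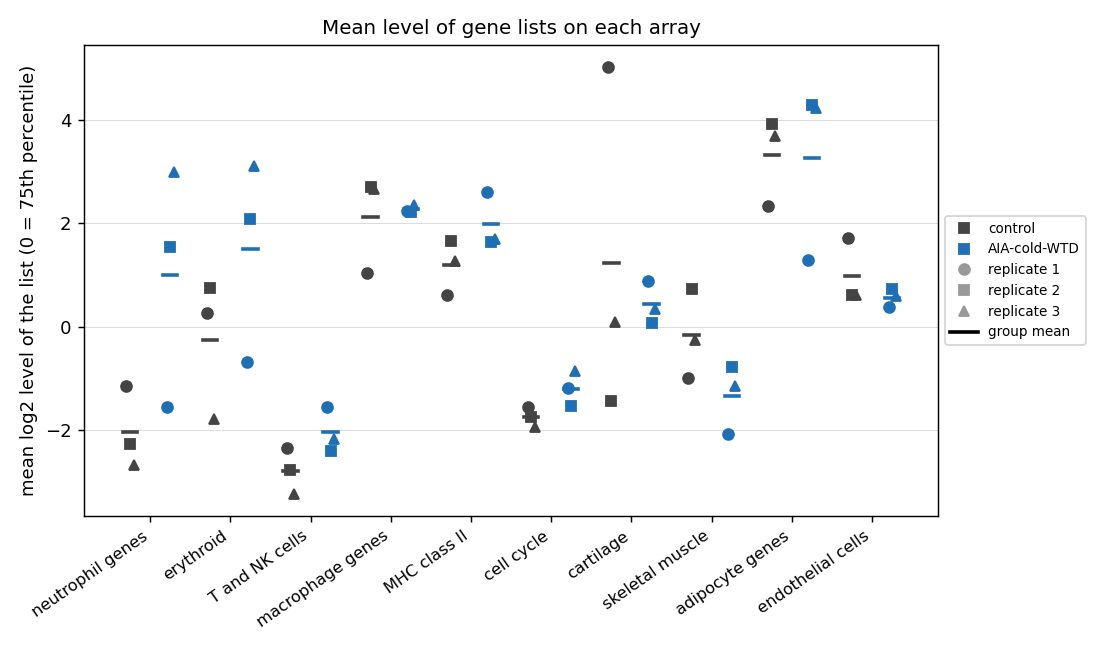
Mean log2 level of 10 gene lists on each control and AIA-cold-WTD array (0 is the 75th percentile of the array; marker shape gives the replicate, bars the group mean). Neutrophil and erythroid means are high on AIA-cold-WTD replicates 2 and 3, adipocyte means low on replicate 1, and the cartilage mean reaches 5.02 on control replicate 1.

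Further lists gave small or divided values. Of Wnt and hedgehog modulators 13 of 22 lay lower (median -0.34, and -0.07 without control replicate 1), among them the hedgehog ligand Ihh (-0.93, adjusted p = 0.128) and the hedgehog-binding Hhip (-1.39, adjusted p = 0.130), both without overlap. Heat shock and cold-inducible genes lay lower in 14 of 19 cases (median -0.12), led by the small heat shock genes Hspb1 (-0.48) and Hspb8 (-0.72). Hypoxia targets had 7 higher and 11 lower (median -0.19, and -0.08 without control replicate 1), with Egln3, an oxygen-sensing hydroxylase, at -1.14. Vegfc, a lymphatic growth factor, differed by -0.81 and Apln, the apelin gene, by -1.28. Cd34, on stromal and endothelial progenitors, differed by -0.94, and 16 of 21 fibroblast and lining genes lay lower (median -0.22).

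Clock genes differed little, with 9 of 16 higher, 1 lower without overlap and a median of 0.05. Per3, a period gene, had levels of -3.16, -3.20 and -3.60 in control and -3.30, -3.17 and -3.03 in AIA-cold-WTD. Ribosomal protein genes lay lower in 17 of 22 cases by a median of -0.15, and by 0.12 the other way after quantile normalization. Slurp1, a secreted keratinocyte protein, was lower on every treated array (-1.41, adjusted p = 0.0895) and Tgm1, an epidermal crosslinking enzyme that was not well above background in control, at least 1.15-fold higher, in a list of epithelial barrier genes with 4 of 13 higher. Both passed the threshold in AIA-cold against control, at -1.80 for Slurp1 and 2.68 for Tgm1 (limma adjusted p = 0.0263 for each).

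**Figure D4:**
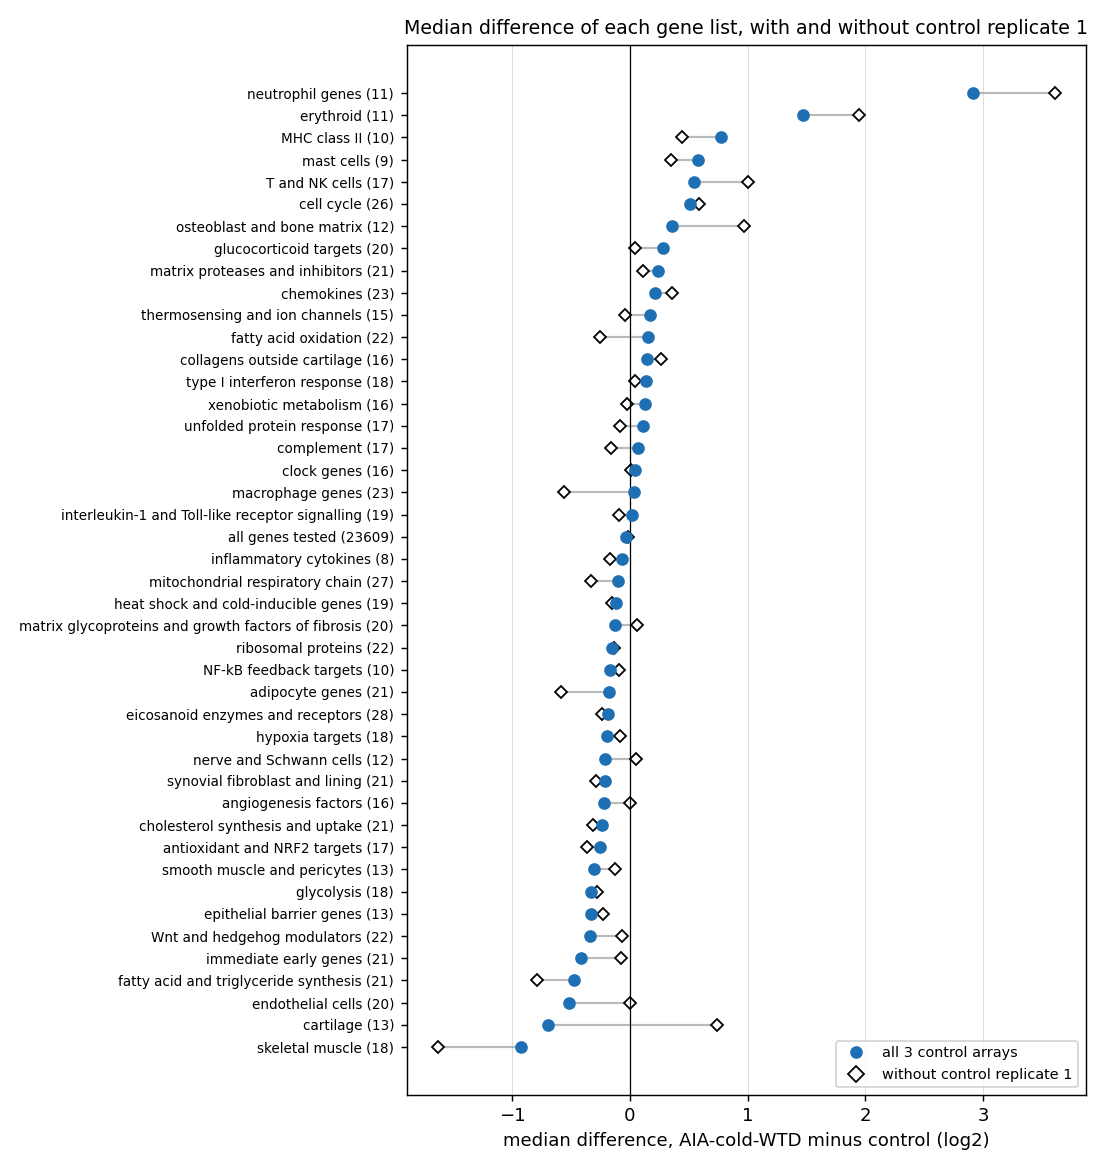
Median log2 difference, AIA-cold-WTD minus control, of each list with 8 or more measured genes (number in brackets), with all 3 control arrays (circles) and without control replicate 1 (diamonds). Neutrophil genes lie at 2.92 and 3.61, skeletal muscle at -0.93 and -1.63, and the cartilage median moves from -0.70 to 0.74.

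Set beside untreated arthritis, the treated group gave fewer calls against the same controls: 7, where AIA-cold against control had 126 (0.534%), 57 higher and 69 lower. That difference in number is not a test of treatment, and with no filter on dim probes the order reversed, 3377 against 206. The direct comparison of AIA-cold-WTD with AIA-cold called 2 genes, both lower, and 1439 (6.10%) had an unadjusted p under 0.05. With slide as a fixed term, which leaves only treated replicate 1 on the slide of the AIA-cold arrays, 32 genes were called and neither of the 2 was among them; with slide as a random block the same 2 were called. AIA-cold against control had 0 calls with that random block. Between AIA-cold-WTD and AIA-hot-WTD limma called 0 genes (smallest adjusted p = 0.503), with 835 at an unadjusted p under 0.05. For the 7 features called against control, AIA-cold-WTD minus AIA-hot-WTD lay between -1.54 (BF549735) and 0.67 (Irak2, dim in both).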

How the data were processed

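RNA from rat knee synovium was hybridised to 18 single-colour Agilent arrays, 6 groups of 3. Per the file headers and the submitters' processing notes, Agilent Feature Extraction 10.7 made the deposited intensity values: the processed signal is background-subtracted and detrended within each array, with a surrogate for dim spots and no normalization between arrays. The deposited series table holds log2 values, which the authors normalized by steps not given in the sources used here. It served only as an alternative.

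Intensities were taken as log2 minus each array's 75th percentile. Control and outlier spots were left out (67 missing probe values), and a probe was kept if every array of some group read it well above background (28275 of 41012). The brightest kept probe stood for a gene, giving 23609 features, 12048 of them with a symbol. A single limma 3.58.1 fit (R 4.3.3) over all 18 arrays gave the differences, with Benjamini-Hochberg adjusted p-values within each comparison and calls at an adjusted p under 0.05. Names came from the files, updated by accession (18028 probes), symbol (3168) or synonym (400) through a RefSeq table for GRCr8, and 19416 kept the file's name. Coordinates of probes are on rn4, as the files give them.

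The named genes are called genes with a symbol, the 10 with the smallest p, up to 4 called or the 2 smallest-p members of each list, and a fixed set of joint and inflammation genes; other list members are given as examples not chosen by size. The comparison, the 46 lists and the named genes were chosen with earlier results of these data known. Replicate numbers follow the order of the samples. Alternatives were other background correction, normalization, filters, probe rules, slide as a block, array weights and each replicate left out. The number of arrays limits the precision. Tested on simulated data for AIA-cold-WTD against control (23575 genes), the fit called 23, 40, 49 and 49 of 50 genes changed by 1, 2, 3 and 4 (log2), and 13 unchanged genes. The simulated noise was normal and independent between arrays, with no dim array, slide effect or background floor. These counts therefore do not carry over directly to the real arrays. Some items are not reported here.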

Additional observations from a re-analysis of the deposited data

Results flagged for a closer look

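Alox15b differed between the WTD-treated and the untreated cold model by -4.96 (log2, limma adjusted p = 0.00241, n = 3 and 3). The probe was not well above background in the treated group, so only the bound of at least 7.30-fold lower holds as a size. It passed the filter only through AIA-cold, the group where it was high. All 3 AIA-cold arrays lay above all 3 AIA-cold-WTD arrays. The difference for BF549735 was -2.01 (limma adjusted p = 0.0130), again with all 3 AIA-cold-WTD arrays below all 3 AIA-cold arrays. Slide 4 held the AIA-cold arrays and AIA-cold-WTD replicate 1, and neither gene was called with slide as a fixed term. The part of the slide in these results was not tested further.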

How the results depend on the processing

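No paired analysis was possible because the replicate numbers follow sample order and the labels give no number that ties arrays across groups. The count of genes called in AIA-cold-WTD against control was 7. It was 0 after normexp correction (9796 genes at an unadjusted p under 0.05), 0 with only the 6 arrays (1384), 0 with slide as a random block (2426), 101 after quantile normalization (69 higher, 32 lower), 100 with the series table's values (68 and 32), 3377 with no filter on dim probes (200 and 3177), and 5717 with array weights, which gave control replicate 1 a weight of 0.0874 and AIA-cold-WTD replicate 1 one of 0.194. Leaving out 1 array of either group gave 0 to 72 calls: 25, 37 and 52 without control replicate 1, 2 or 3, 72 without AIA-cold-WTD replicate 1, and 0 without replicate 2 or 3. Alternatives chosen after seeing the data gave 37 calls for quantile normalization without control replicate 1 (4 of the 7 among them), 0 without any 1 AIA-cold array, and 9, 0 and 0 without AIA-hot-WTD replicate 1, 2 or 3. For AIA-cold-WTD against AIA-cold the 2 calls became 0 after normexp, 4 after quantile normalization, 32 with slide as a fixed block, 4284 with array weights (2067 higher, 2217 lower), and 1 to 82 with 1 array left out. Against AIA-hot-WTD the count was 502 with array weights, and 0 to 14 with 1 array left out, 14 without AIA-cold-WTD replicate 1. AIA-cold against control had 126 calls, 223 after quantile normalization, 206 with no filter on dim probes, 6220 with array weights, 0 with slide as a random block and 0 to 297 with 1 array left out. The causes were not tested.

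The median over all genes moved from -0.04 to -0.21 after normexp, 0.06 after quantile normalization, 0.07 with the series table and -0.22 without the filter. The sign turned after normexp for Cd209f (-0.32), Klrd1 (-0.20), Sdc1 (0.0061), Ms4a2 (-0.17), RT1-DOa (-0.33), Pgam1 (0.12), Atp5mc1 (0.18), Cfd (0.027), Ctsb (0.12), Mcm6 (-0.14), Tgm1 (-0.16), Adrb1 (-0.52), Adipoq (0.24) and Per3 (-0.47). It turned after quantile normalization for Cfd (0.12), Rpl8 (0.058) and Adipoq (0.099), and with the series table for Cfd (0.24), Ctsb (0.043), Rpl8 (0.21), Adipoq (0.22) and Col2a1 (0.021). Array weights turned Ctsk (-0.047), Adipoq (0.25), Col2a1 (2.61) and Acan (0.40), and slide as a random block turned Acan (0.031). With 1 array left out the difference ran from -0.31 to 0.47 for Acp5, -0.79 to 0.81 for Adipoq, -3.81 to 3.54 for Col2a1, -1.84 to 2.27 for Acan and -0.66 to 0.17 for Fos. Among 117 named genes, the other signs held under these settings. The dim signal of control replicate 1, with 43.3% of probes well above background, limits every low-level difference from control.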
